A study of Mus musculus with 94 samples.

Results

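Lamivudine treatment of wild-type (WT) mice was compared with no treatment in the cerebral cortex, at the level of single LINE-1 (L1) elements and of their subfamilies. The cortex libraries were chosen by their labels, genotype WT and treatment lamivudine (WT-t, 17 libraries) or none (WT-nt, 9 libraries), which are 26 of the 94 libraries of the series. All were from male euploid littermates of trisomic Ts65Dn (TS) mice, from B6EiC4Sn.BLiA-Ts(1716)65Dn/DnJ females and B6C3F1/OlaHsd hybrid males, so that the background was mixed and not inbred. WT-t mice received lamivudine (Epivir oral solution) in the drinking water at 3 mg/kg, and WT-nt mice received water. Per the labels mice of 3 to 4 months were used. Treatment lasted 4 months, and the age at which tissue was taken is not given in the sources used here. Each label names 1 animal, but the methods of the study also speak of pooling samples of a condition before RNA was measured, and whether a library was 1 mouse or a pool is not given. P-values below measure the spread between libraries. In the main test of elements and subfamilies that spread was estimated over all 48 cortex libraries, those of TS mice included.

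L1s are autonomous retrotransposons that move by target-primed reverse transcription, in which ORF2p copies the L1 RNA into DNA at the insertion site. In the mouse genome the youngest subfamilies, L1Md_T, L1Md_A and L1Md_Gf, hold the copies that can still move, the L1Md_F, Lx and L1_Mus groups are older rodent lineages, and the L1M groups are ancient copies shared among mammals that have lost the ability to move. Lamivudine is a cytidine analogue that ends DNA chains made by reverse transcriptase, a step that comes after transcription of the element. The counts analyzed here are of L1 RNA and do not measure insertion. The comparison asked whether the level of L1 RNA differed with treatment in mice without the trisomy.

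L1 counts per library were between 275291 and 1165192 (median 326153) in WT-nt and between 186545 and 373584 (median 322736) in WT-t. In total RNA from tissue, fewer cells of a type and less RNA per cell cannot be told apart, and since the table holds only L1 elements, neither the cortex label nor cell types could be checked with marker genes. A library had counts on 41416 to 78078 elements in WT-nt and on 3168 to 65167 in WT-t. On the first principal component of the 48 cortex libraries, which held 20.2% of the variance, 5 of the 26 WT libraries were outlying, at a distance from the median of over 3 median absolute deviations. These were WT-nt 1 and WT-t 1, 2, 3 and 16 (the numbers follow the order of the samples in the series and pair nothing). WT-nt 1 had the highest L1 total, and WT-t 1 had counts on only 3168 elements, with 24.2% of its counts on 1 of them. The animal labels of WT-t 1, 2 and 3 begin with 18, as do 6 of the 17 WT-t labels. Of the other WT-t labels 8 begin with 19 and 3 with 20, whereas all 9 WT-nt labels begin with 20, so that what the label start stands for and treatment cannot be fully told apart. Results are given with all libraries and, where these libraries bear on them, without the 8 cortex libraries of the 4 groups that lay this far out (called libraries that stand apart).

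**Figure D1:**
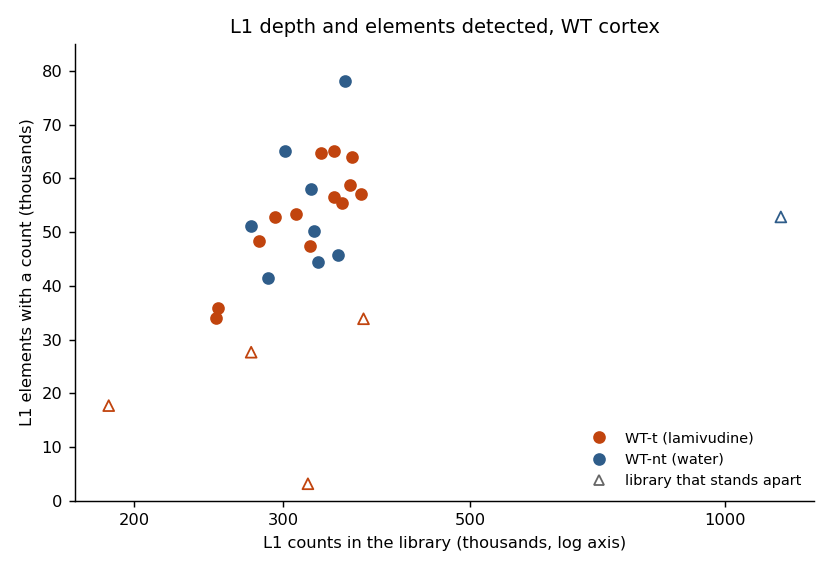
L1 elements detected with at least 1 count (in 1000s, vertical) against the L1 counts of a library (in 1000s, log axis, horizontal) for 17 WT-t and 9 WT-nt cortex libraries; each point is a library and open triangles are the 5 libraries that stand apart. WT-nt 1 lies far to the right at 1165192 counts, and WT-t 1 at the bottom with 3168 elements.

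No single L1 element passed the test between WT-t and WT-nt cortex. Of the 430083 elements of the table, 284412 had a count in at least 1 WT cortex library, 420 had one in all 26, and 5416 had enough counts in the 48 cortex libraries to be tested (edgeR's filterByExpr filter). These 5416 held 49.6% of the L1 counts of the WT cortex libraries. In edgeR's quasi-likelihood test with Benjamini-Hochberg adjustment, 0 were called at an adjusted p-value below 0.1 (0.0% of those tested), and the smallest adjusted p-value was 0.999. Unadjusted p-values below 0.05 were found for 40 elements with a higher level in WT-t (0.739%) and 46 with a lower level (0.849%) and thus 1.59% in all. The groups overlapped for every element tested (0 elements, 0.0% in either direction, had all WT-t libraries above or below all WT-nt libraries). DESeq2's Wald test on the same elements called 0, with 263 at an unadjusted p-value below 0.05, 71 higher and 192 lower in WT-t. Without the libraries that stand apart edgeR again called 0, with 92 elements higher and 54 lower at an unadjusted p-value below 0.05 and a smallest adjusted p-value of 0.298. DESeq2 without those libraries called 2 elements, both higher in WT-t: Lx3C_dup1451 (log2 fold change 1.70, adjusted p = 0.0444) and L1MA8_dup3660 (2.01, adjusted p = 0.0444).

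The spread between mice set the size of change that could be seen. The biological coefficient of variation common to the elements tested was 0.744, and the median standard error of an element's log2 fold change was 0.54. The 95% confidence interval lay wholly within a 2-fold change in either direction for 1066 of 5416 elements (19.7%) and within a 4-fold change for 4962 (91.6%). For most elements a 2-fold difference could thus not be excluded at this depth and spread. Larger fitted changes also went uncalled after adjustment over 5416 elements. Lx5b_dup498, at a fitted 3.21-fold with an SE of 0.51, had an adjusted p of 0.999 in edgeR's test. The median log2 fold change was -0.01, and 2647 of 5416 elements had a higher and 2769 a lower fitted level in WT-t. This balance depended on the scaling and on the libraries included. The lower share was 59.4% with DESeq2's size factors in edgeR and 59.7% without WT-nt 1. It was 47.4% without the libraries that stand apart.

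Among the elements with a higher fitted level in WT-t, the 8 with the smallest p-values were Lx5b_dup498, Lx3C_dup1451, Lx_dup3586, Lx5_dup10770, L1Md_T_dup18258, Lx_dup7185, L1Md_F2_dup55012 and L1_Mus3_dup43182, and none passed the adjusted test. Levels are given in CPM, the counts of an element scaled to the library's counts on all elements tested, after TMM scaling. Lx5b_dup498, a copy of a rodent-specific Lx subfamily at chr1:176865854-176866770 (GRCm38, minus strand), had between 0 and 91.4 CPM (median 30.1) in WT-nt and between 0 and 279 CPM (median 115) in WT-t. It lies in an intron of Sdccag8, a centrosomal protein gene on the opposite strand, and overlaps no exon. In 10 of 17 WT-t libraries its level was above every WT-nt library, and in 16 of 17 above the WT-nt median. Its log2 fold change was 1.68 ± 0.51 (SE; unadjusted p = 0.00121, edgeR's adjusted p = 0.999), 1.5 without WT-nt 1 and 1.64 without the libraries that stand apart (adjusted p = 0.317). It was 2.01 for the WT-t mice with labels beginning with 18, 1.62 for those with 19 and 0.96 for those with 20.

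Lx3C_dup1451, at chr4:78267017-78268379 (plus strand) outside annotated genes, had 19.1 to 170 CPM (median 66.4) in WT-nt and 0 to 598 CPM (median 164) in WT-t. Here 8 WT-t libraries lay above all WT-nt libraries and 3 below all of them. The 3 lowest were all libraries that stand apart, and the log2 fold change was 1.38 ± 0.48 with and 1.71 ± 0.45 without such libraries (adjusted p = 0.999 and 0.877 in edgeR). Lx_dup7185 had no count in 6 of 9 WT-nt libraries, 11.5 and 12.0 CPM in 2 others and 91.4 CPM in WT-nt 2, against 0 to 143 CPM (median 54.8) in WT-t. WT-t 1, 15 and 16 had no count either, so that the groups overlapped with and without WT-nt 2, and without that library its log2 fold change went from 2.08 to 3.98 and it passed the test (edgeR's adjusted p = 0.0519). For Lx_dup3586 (0 to 27.5 CPM in WT-nt and 0 to 103 CPM in WT-t) and Lx5_dup10770 (0 to 27.5 and 0 to 86.6 CPM) 10 WT-t libraries each lay above all WT-nt libraries. L1Md_F2_dup55012, of the older L1Md_F2 subfamily, had 12 such libraries, with medians of 43.1 CPM in WT-t and 6.35 CPM in WT-nt. Counts of these 3 elements were few. All WT-nt libraries together held 12, 9 and 15 counts of Lx_dup3586, Lx5_dup10770 and L1Md_F2_dup55012, and all WT-t libraries held 129, 92 and 134. The elements were picked by their p-values in this comparison, so that the numbers of libraries above WT-nt are no separate support.

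L1Md_T_dup18258 is a copy of the young L1Md_T subfamily, whose full-length members are among the mobile L1s of the mouse. Its level was 12.0 to 118 CPM (median 36.6) in WT-nt and 37.0 to 381 CPM (median 81.5) in WT-t, and every WT-t library was above the WT-nt median. The 4 highest WT-t values did not all come from one label start, but the 3 highest were of libraries that stand apart, with labels beginning with 18, and the log2 fold change was 1.27 ± 0.47 with and 1.06 ± 0.43 without them. L1_Mus3_dup43182, with medians of 304 CPM in WT-t and 188 CPM in WT-nt, was the most abundant of the 8 and had the lowest log2 fold change (0.80 ± 0.33).

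The 8 elements with a lower fitted level in WT-t and the smallest p-values were L1Md_T_dup7891, L1M4b_dup157, Lx7_dup4628, L1_Mus4_dup8077, L1Md_T_dup6526, L1_Mur3_dup27344, Lx3_Mus_dup9236 and L1_Mus2_dup14352, and none passed the adjusted test. Lx7_dup4628 was the most abundant, at 1598 to 3779 CPM (median 2760) in WT-nt and 725 to 4321 CPM (median 1509) in WT-t. Of its 17 WT-t values 9 were below every WT-nt library and 1, of a library that stands apart, was above all of them. The log2 fold change was -0.55 ± 0.22 (unadjusted p = 0.0111, edgeR's adjusted p = 0.999) and -0.64 ± 0.20 without the libraries that stand apart. L1M4b_dup157, an ancient copy, had 28.5 to 99.3 CPM in WT-nt and 0 to 74.9 CPM in WT-t, and 13 WT-t libraries were below all WT-nt libraries. L1_Mur3_dup27344 split the WT-nt libraries, with 4 at 0 to 6.79 CPM and 5 at 54.9 to 96.4 CPM, while WT-t libraries were between 0 and 33.5 CPM.

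A single library, WT-nt 1, gave the highest WT value for 5 of these 8. It had 384 CPM for L1_Mus4_dup8077, 402 CPM for L1Md_T_dup6526 and 299 CPM for L1_Mus2_dup14352. Without it the log2 fold changes went from -1.25 to -0.63, from -1.06 to -0.68 and from -1.44 to -0.54. L1Md_T_dup7891, at 133 CPM in WT-nt 1, went from -1.74 to -1.48, and its WT-nt values of 0 to 133 CPM enclosed all WT-t values (0 to 54.8 CPM). Lx3_Mus_dup9236, at 140 CPM in that library, went from -1.64 to -1.34.

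**Figure D2:**
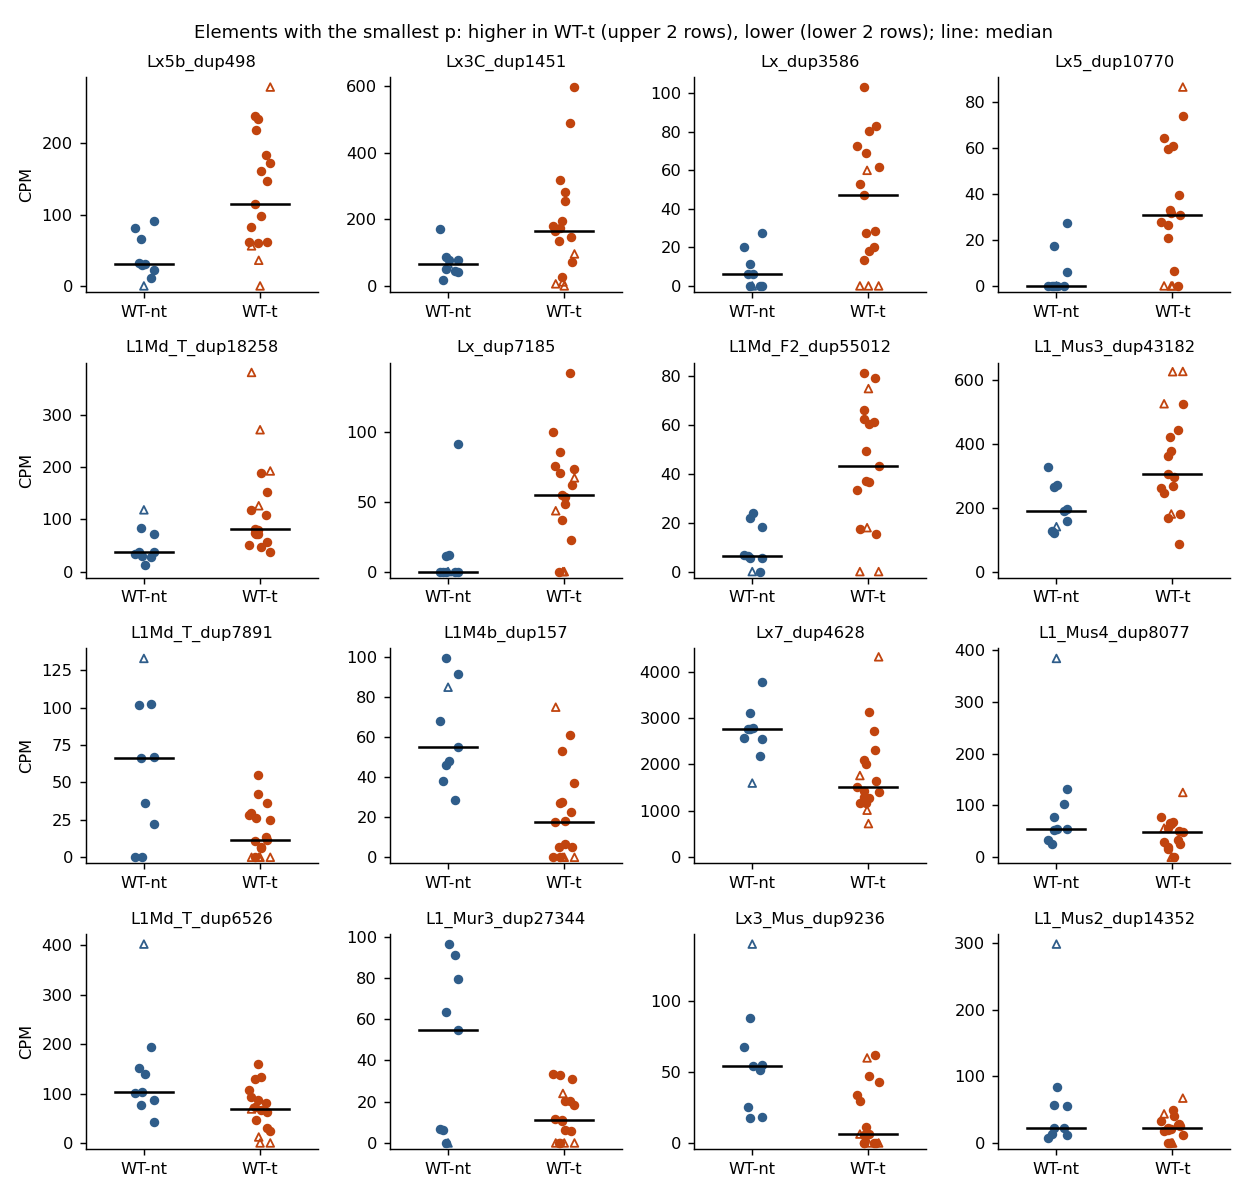
CPM of the 8 elements with the smallest p-values among those higher in WT-t (upper panels) and of the 8 among those lower in WT-t (lower panels) in WT-nt (9 libraries, left) and WT-t (17 libraries, right); each point is a library, open triangles are libraries that stand apart and lines are medians. The groups overlap in every panel, and the triangle of WT-nt 1 is the highest value for L1Md_T_dup7891, L1_Mus4_dup8077, L1Md_T_dup6526, Lx3_Mus_dup9236 and L1_Mus2_dup14352.

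The 10 most abundant elements did not pass the test (edgeR's adjusted p = 0.999 for each). L1MEd_dup2089, a copy of an ancient mammalian subfamily, was the first, with 596 to 321657 CPM (median 74281) in WT-nt and 43029 to 323330 CPM (median 61695) in WT-t, and a log2 fold change of 0.14 ± 0.52. Its 4 highest values were of WT-nt 1 and WT-t 1, 2 and 3. L1ME3Cz_dup549 was next, with narrower groups of 41392 to 73550 CPM in WT-nt and 22597 to 98341 CPM in WT-t, and its log2 fold change was -0.12 (95% confidence interval -0.42 to 0.18). Lx7_dup29483 gave 0.16 (-0.14 to 0.45), L1MEi_dup274 -0.14 (-0.47 to 0.19), Lx_dup18222 0.09 (-0.27 to 0.45), L1MC4_dup2661 0.21 (-0.14 to 0.56) and L1M4_dup8058 -0.06 (-0.42 to 0.30). For HAL1_dup2781, of a family that lacks the reading frame for reverse transcriptase, the value was -0.15 (-0.78 to 0.48). The intervals of these 7 exclude a 2-fold change. All 758 bases of L1MC4_dup2661 lie in exon 2 of annotated transcripts of 2900052N01Rik, a long non-coding RNA gene on the same strand. Its counts may therefore hold reads of that gene, which cannot be told apart from reads of the L1 itself.

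The other 2 abundant elements varied widely within both groups. L1Md_T_dup9904 had no count in WT-nt 9, 22.8 CPM in WT-nt 7 and 182971 CPM in WT-nt 1, and in WT-t its range was 61.1 to 196915 CPM. Its log2 fold change was -0.05 ± 1.26 with all libraries, 3.59 without WT-nt 1 and 0.66 without the libraries that stand apart. Lx3B_dup3459 fell into separate levels in both groups, with 177, 181 and 258 CPM in 3 WT-nt libraries against 7963 to 21498 CPM in the other 6, and with 172, 192 and 208 CPM in 3 WT-t libraries against 6975 to 42561 CPM in the other 14. No WT library lay between 258 and 6975 CPM, and each group held both levels.

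**Figure D3:**
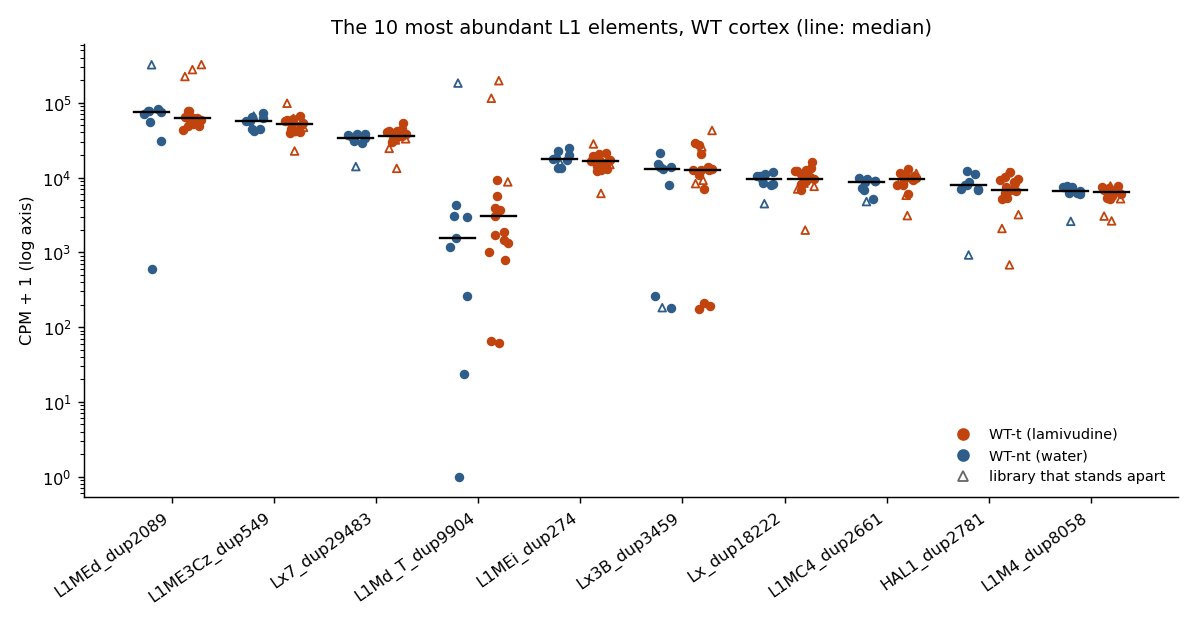
CPM + 1 (log axis) of the 10 most abundant L1 elements in WT-nt (left of each pair, 9 libraries) and WT-t (right, 17 libraries); each point is a library, open triangles are libraries that stand apart and lines are medians. Medians lie close together within each pair except for L1Md_T_dup9904 (1533 and 3092 CPM), which spans several orders of magnitude in both groups, and Lx3B_dup3459 has 3 low libraries in each group.

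L1Md_F2_dup59906 (chr17:3111781-3112547, minus strand) has 758 of its 767 bases in exon 4 of Gm21926, a transcribed processed pseudogene. Its sequence is shown because its counts may hold reads of that transcript, which cannot be told apart from reads of the L1 itself. The bases printed are the first 300 of the element within the exon, chr17:3112248-3112547, 5′ to 3′, in lower case, read from the GENCODE M21 transcripts of GRCm38, with a GC content of 43.3%.
L1Md_F2_dup59906: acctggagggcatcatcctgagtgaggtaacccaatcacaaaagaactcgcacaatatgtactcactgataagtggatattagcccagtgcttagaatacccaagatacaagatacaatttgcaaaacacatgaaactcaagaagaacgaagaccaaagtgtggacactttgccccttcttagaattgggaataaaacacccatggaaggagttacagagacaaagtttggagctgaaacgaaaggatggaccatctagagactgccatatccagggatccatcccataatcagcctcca

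L1Md_F2_dup59906 had 402 to 1513 CPM (median 1219) in WT-nt and 46.4 to 2204 CPM (median 1194) in WT-t, with a log2 fold change of 0.10 ± 0.24. L1_Mm_dup4871, at chr16:31386704-31387928 outside annotated genes, had medians of 1632 CPM in WT-nt and 1750 CPM in WT-t, and a log2 fold change of 0.09 ± 0.22. Lx8_dup1602 did not pass the filter and was not tested. Its levels were 0 to 75.1 CPM (median 19.1) in WT-nt and 0 to 880 CPM (median 28.9) in WT-t, and since the lists of the study give it at 2 different positions, none is stated here. These 3 were included because the study's lists of elements name them.

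Counts were then summed over the copies of each of the 133 subfamilies, which removes most of the spread between single copies. No subfamily was called between WT-t and WT-nt (0 of 133, 0.0%, smallest adjusted p = 0.291 in edgeR's quasi-likelihood test). DESeq2 called 0 as well, with 19 at an unadjusted p-value below 0.05 and a smallest adjusted p of 0.208. At an unadjusted p-value below 0.05, 4 subfamilies had a higher level (3.01%) and 15 a lower level in WT-t (11.3%), 14.3% in all. With the scaling factors of the element table instead, 25 subfamilies were called in edgeR, all lower, and 8.27% of subfamilies were above 0 instead of 45.9%, around a median of -0.17, and 0 were called with that scaling without WT-nt 1. The lower values rested on 1 library: without WT-nt 1, 2 subfamilies had a higher level and 0 a lower level at this threshold, and without the libraries that stand apart 1 was higher (L1MA5A) and 1 lower (Lx3A). The coefficient of variation was 0.227. The 95% confidence interval lay within a 1.41-fold change in either direction for 93 of 133 subfamilies (69.9%), and for 117 (88.0%) without the libraries that stand apart.

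None of the 3 subfamilies that hold mobile copies passed the adjusted test. Levels of subfamilies are in CPM of all L1 counts after TMM scaling, and are thus not shares of a library's L1 counts. The scaling factor was 0.613 for WT-t 1 and 0.678 for WT-nt 1, which puts the CPM of both libraries above their shares. L1Md_A had 14799 to 35114 CPM (median 15532) in WT-nt and 12746 to 18026 CPM (median 15001) in WT-t. Apart from WT-nt 1, at 35114 CPM, WT-nt libraries did not exceed 16398 CPM, and the log2 fold change was -0.22 ± 0.09 with all libraries (adjusted p = 0.295) and -0.02 ± 0.05 without WT-nt 1. L1Md_Gf, the least abundant of them, had medians of 1003 CPM in WT-nt and 1000 CPM in WT-t, and its log2 fold change went from -0.41 ± 0.15 to -0.11 ± 0.11 without WT-nt 1, where it had 3235 CPM. For L1Md_T, WT-nt was at 22515 to 117418 CPM (median 24406) and WT-t at 22298 to 302770 CPM (median 24220). The 3 highest L1Md_T values were of WT-t 1, WT-nt 1 and WT-t 3, in which L1Md_T_dup9904 alone had more than 100000 CPM of the elements tested. The L1Md_T log2 fold change was 0.37 ± 0.42 with all libraries, 0.89 ± 0.42 without WT-nt 1 (unadjusted p = 0.0415) and 0.00 ± 0.16 without the libraries that stand apart.

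The older L1Md_F group did not pass the test either. L1Md_F2, the subfamily with the highest share of L1 counts (6.51% on average), had medians of 63992 CPM in WT-nt and 62187 CPM in WT-t. Its log2 fold change was -0.15 ± 0.08 with all libraries and -0.02 ± 0.02 without the libraries that stand apart. L1Md_F and L1Md_F3 gave -0.20 ± 0.12 and -0.05 ± 0.13 with all libraries, and 0.05 ± 0.05 and -0.02 ± 0.05 without the libraries that stand apart. Of the other subfamilies with a high share, Lx8 gave -0.02 ± 0.03, Lx7 0.02 ± 0.04 and L1MEd 0.76 ± 0.50, the last with WT-nt at 4146 to 113439 CPM and WT-t at 25717 to 399969 CPM. Without the libraries that stand apart L1MEd gave 0.02 ± 0.33.

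Lx3A, Lx2A, L1Md_Gf and Lx9 had the smallest p-values among the subfamilies lower in WT-t. Lx3A had 4379 to 14704 CPM (median 4856) in WT-nt and 3474 to 5660 CPM (median 4596) in WT-t, and its log2 fold change was -0.40 ± 0.12 with all libraries (adjusted p = 0.291), -0.10 ± 0.07 without WT-nt 1 and -0.10 ± 0.04 without the libraries that stand apart (adjusted p = 0.995). Lx2A was at 2813 CPM in WT-nt 1 and at 511 to 598 CPM in the other 8 WT-nt libraries, and its log2 fold change went from -0.59 ± 0.21 to -0.02 ± 0.14 without that library. The copy with most Lx2A counts, Lx2A_dup118 (chr2:73337473-73337529, in the last exon of Scrn3 and within its untranslated region), had the opposite sign at 1.08 ± 0.45, and held 7.51% of the counts of the subfamily. All 57 bases of Lx2A_dup118 lie in that exon, on the same strand. Its counts may therefore hold reads of Scrn3, which cannot be told apart from reads of the L1 itself. Lx9 gave -0.13 ± 0.05, with 10 of 17 WT-t libraries below every WT-nt library, and -0.02 ± 0.03 without the libraries that stand apart.

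L1ME4a, L1MD3, L1MC and L1MB7, all ancient subfamilies, had the smallest p-values among those higher in WT-t. L1ME4a had 5248 to 11145 CPM (median 9702) in WT-nt and 8740 to 13810 CPM (median 10643) in WT-t, and its log2 fold change was 0.23 ± 0.09 (adjusted p = 0.295). Its lowest WT-nt value was that of WT-nt 1, and without this library it was 0.16 ± 0.09. For L1MD3, L1MC and L1MB7 the log2 fold changes were 0.11 ± 0.05, 0.09 ± 0.04 and 0.11 ± 0.05. Without the libraries that stand apart they were 0.06 ± 0.04, 0.06 ± 0.04 and 0.03 ± 0.03. The leading copies of these 4 (L1ME4a_dup1263, L1MD3_dup770, L1MC_dup2134 and L1MB7_dup83) held 13.5%, 21.7%, 9.95% and 7.65% of their subfamily, with log2 fold changes of 0.11 ± 0.20, 0.22 ± 0.21, 0.28 ± 0.24 and 0.22 ± 0.20. The leading copies of Lx3A, L1Md_Gf and Lx9 (Lx3A_dup8166, L1Md_Gf_dup993 and Lx9_dup35330) held 9.99%, 18.4% and 1.58% of their subfamily. They gave 0.14 ± 0.24, 0.11 ± 0.32 and 0.01 ± 0.23, each above 0 where the subfamily was below 0, but each SE was larger than its value. Without WT-nt 1 these 3 copies were below 0 too, at -0.02 ± 0.22, -0.06 ± 0.28 and -0.04 ± 0.23.

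**Figure D4:**
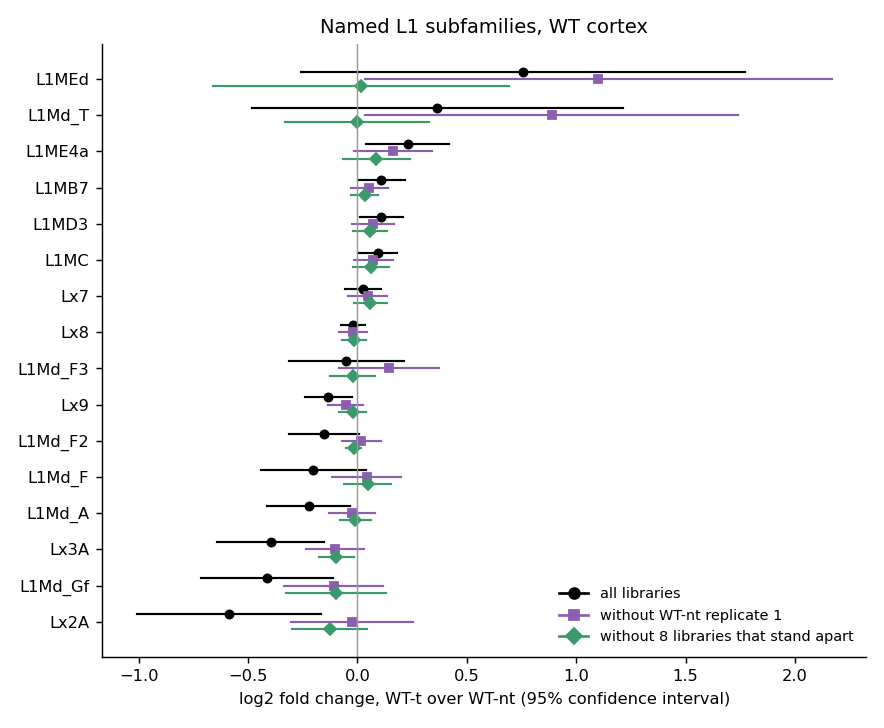
Log2 fold change of WT-t over WT-nt with its 95% confidence interval for 16 L1 subfamilies, with all libraries (black circles), without WT-nt replicate 1 (purple squares) and without the 8 libraries that stand apart (green diamonds). Most values below 0 with all libraries, such as -0.59 for Lx2A, move toward 0 when WT-nt replicate 1 is left out. Lx8 stays at -0.02, L1Md_F3 goes from -0.05 to 0.15, and L1Md_T and L1MEd move up.

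Described by class, every subfamily of 5 rodent classes had a log2 fold change below 0 with all libraries. These were the 3 subfamilies of L1Md_F (median -0.15), the 5 of L1_Mus and L1_Mm (-0.15), the 7 of L1_Mur, L1VL and L1_Rod (-0.19), the 6 of Lx and Lx2 (-0.32) and the 4 of Lx5 and Lx6 (-0.17), beside a median of -0.01 over all 133. Without WT-nt 1 their medians were 0.04, 0.00, 0.03, 0.01 and -0.02, beside 0.00 over all 133. The 15 subfamilies lower at an unadjusted p-value below 0.05 (11.3% of 133) were 3 of Lx and Lx2, 3 of Lx5 and Lx6, 2 each of L1_Mus and L1_Mm, of Lx3 and Lx4 and of L1Md_T/A/Gf, and 1 each of L1_Mur, L1VL and L1_Rod, of Lx8, Lx9 and Lx10 and of L1M1 to L1M8. Without WT-nt 1 no subfamily was lower at this threshold. Of Lx3 and Lx4, 4 of 6 were below 0 (median -0.16), of Lx8, Lx9 and Lx10 3 of 4 (-0.04), and of L1Md_T/A/Gf 2 of 3 (-0.22). The ancient classes lay around 0, with 8 of 16 below 0 in L1MA and L1MB (median 0.00), 6 of 17 in L1MC and L1MD (0.03), 6 of 27 in L1ME (0.07), 15 of 25 in L1M1 to L1M8 (-0.01) and 3 of 6 in HAL1 (0.00). The 3 subfamilies that fit no class were all above 0 (median 0.30), and 0.12 without the libraries that stand apart.

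The share of a library's L1 counts on each of 15 classes of subfamilies was compared with an exact two-sided permutation test over all 3124550 assignments of the 2 labels. None passed the test after adjustment over the 15 classes (0.0% called, smallest adjusted p = 0.315), and 1 class (6.67%) had an unadjusted p-value below 0.05. This was L1Md_F, with 8.49% ± 1.04 of counts in WT-nt and 7.85% ± 0.56 in WT-t (mean ± SD, exact permutation p = 0.0341). Without the libraries that stand apart its shares were 8.16% ± 0.29 and 8.06% ± 0.15 (exact permutation p = 0.325). L1Md_T/A/Gf, the class with the mobile copies, held 4.99% ± 2.096 in WT-nt and 5.39% ± 3.80 in WT-t, and 4.29% ± 0.20 and 4.27% ± 0.29 without the libraries that stand apart. The largest difference was in L1ME, with 14.03% ± 1.95 in WT-nt and 16.5% ± 5.59 in WT-t (exact permutation p = 0.214). Its highest shares were 32.2% in WT-t 1, 28.6% in WT-t 2 and 20.7% in WT-t 3, and in the 8 WT-t libraries with labels beginning with 19 the mean was 14.1% ± 1.02.

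**Figure D5:**
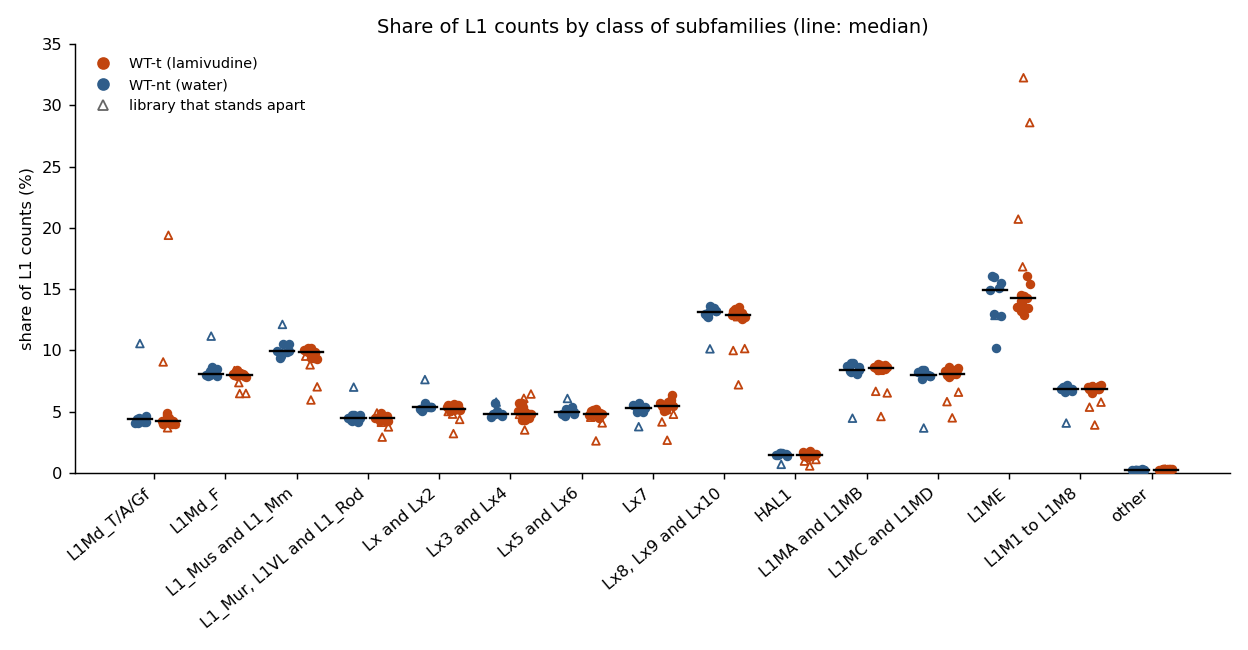
Share of the L1 counts of a library (%) on 15 classes of subfamilies in WT-nt (left of each pair, 9 libraries) and WT-t (right, 17 libraries); each point is a library, open triangles are the 5 libraries that stand apart and lines are medians. Medians of the pairs lie side by side, and the 3 highest L1ME shares (32.2%, 28.6% and 20.7%) are triangles.

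When every library was thinned to 186545 counts, L1 RNA came from 44970 ± 7258 elements in WT-nt and 38659 ± 13342 in WT-t (mean ± SD, exact permutation p = 0.207). WT-t 1 had 2834 elements at this depth, and without the libraries that stand apart the numbers were 45543 ± 7538 and 44591 ± 6118 (exact permutation p = 0.754). The most abundant element of a library held 4.03% ± 1.46 of its counts in WT-nt and 5.79% ± 6.07 in WT-t (exact permutation p = 0.461), and 3.60% ± 0.73 and 3.27% ± 0.44 without the libraries that stand apart (p = 0.209). The medians, 3.79% in WT-nt and 3.30% in WT-t, had the opposite order to the means of all libraries.

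The treatment effect was set beside those in TS cortex and in WT hippocampus, which share no library with it, although the interaction given next uses the WT cortex libraries themselves. In TS cortex (22 libraries) and in WT hippocampus (25 libraries) edgeR called 0 elements and 0 subfamilies (0.0% each), with 0.905% and 3.16% of elements and 2.26% and 3.79% of subfamilies at an unadjusted p-value below 0.05. The interaction of treatment and genotype in cortex gave 0 called elements (smallest adjusted p above 0.999) and 0 called subfamilies (smallest adjusted p = 0.181), with 1.11% of elements and 21.1% of subfamilies below 0.05 before adjustment. In the interaction DESeq2 called 15 subfamilies, and 0 without WT-nt 1 or without the libraries that stand apart. The difference of the treatment effect between cortex and hippocampus, computed within the 17 WT-t and 8 WT-nt mice with both tissues, was called for 0 of 132 subfamilies (exact permutation test, 0.0%, smallest adjusted p = 0.894), with 2 (1.52%), Lx3A and L1_Mus2, at an unadjusted p-value below 0.05.

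Of the 8 elements with the smallest p-values and a higher level in WT-t cortex, 5 had a log2 fold change above 0 in TS cortex too, a share of 62.5% beside 51.8% for all elements above 0 in WT cortex. Of the 8 lower elements 3 were below 0 in TS cortex, 37.5% beside 49.1%. In WT hippocampus, whose libraries are from the same mice and are therefore no independent replicate, 4 of the 8 higher elements were tested and all 4 were above 0, beside 55.6% of all elements above 0 in WT cortex. Of the lower elements 3 were tested there and 2 were below 0 (66.7%), beside 57.0% of all. Lx_dup7185 had the smallest p-value of the 4238 elements tested there, with a log2 fold change of 3.79 ± 0.95 (edgeR's adjusted p = 0.564), and it gave -0.16 ± 0.70 in TS cortex. The mouse of cortex library WT-nt 2, at 91.4 CPM of this element, has no hippocampus library. Without WT-nt 2 the cortex value of Lx_dup7185 was 3.98. Lx5b_dup498 gave 1.13 ± 0.47 in WT hippocampus and 0.70 ± 0.50 in TS cortex, both with an adjusted p above 0.999. Lx7_dup4628 was below 0 in all 3, at -0.55 ± 0.22, -0.34 ± 0.23 in TS cortex and -0.58 ± 0.25 in WT hippocampus.

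Among the WT-t libraries, the 3 label starts were compared because all WT-nt labels begin with 20. No element was called (0.0%, smallest adjusted p = 0.114 in edgeR, 3.51% at an unadjusted p-value below 0.05), and 3 of 133 subfamilies were (2.26%): L1MEd, L1MEg and L1Md_T (edgeR's quasi-likelihood test, adjusted p = 0.0639 for each), with 8.27% at an unadjusted p-value below 0.05. The median of L1MEd was 78123 CPM in the 6 libraries with 18, 34636 CPM in the 8 with 19 and 34524 CPM in the 3 with 20, and the highest value, 399969 CPM, was of WT-t 1. L1MEg, another ancient subfamily, had medians of 14834, 9446 and 6517 CPM, and L1Md_T of 31861, 23945 and 22757 CPM. Without WT-t 1 none of the 133 was called (smallest adjusted p = 0.998). With WT-t limited to the 3 mice with labels beginning with 20, as in WT-nt, edgeR called 0 elements and 0 subfamilies against WT-nt (smallest adjusted p above 0.999 and 0.685), with 230 of 10173 elements and 2 of 133 subfamilies at an unadjusted p-value below 0.05. For labels beginning with 18 against WT-nt, 1 element (0.0185%), L1_Mus1_dup3765, was called with a lower level, and for 19 none was (0.0%), with 5.82% and 0.886% of elements at an unadjusted p-value below 0.05 and 1.18% for 20 in the same model. Of subfamilies, none was called for 18, 19 or 20 (0.0% each), and 20 (15%), 12 (9.02%) and 3 (2.26%) had an unadjusted p-value below 0.05 in edgeR.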

How the data were processed

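Raw counts of L1 elements were analyzed in cortex of WT mice, with the other cortex libraries in the same model and the WT hippocampus libraries for comparison. Per the labels and the methods of the study, total RNA was depleted of ribosomal RNA with the TruSeq Stranded Total RNA kit and sequenced on a NovaSeq6000. Per the submitters' processing notes, reads were trimmed with Trimmomatic 0.38 and aligned with HISAT2 2.1.0 to GRCm38/mm10, and StringTie 2.1.3b was used for genes. The authors then assigned reads with several alignments to single L1 elements with Telescope and deposited whole-number counts, not normalized. A read with many possible origins is thus placed by a model, which affects young, near-identical copies most, and their single-copy values are uncertain.

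Counts were summed per subfamily by the name before the copy number, and 15 classes of subfamilies were used. The study's thresholds were kept. Elements (after filterByExpr) and subfamilies were each fitted in edgeR 4.0.16 (R 4.3.3) with TMM scaling and the robust quasi-likelihood test, 4 cortex groups in 1 model, with Benjamini-Hochberg adjustment and a threshold of 0.1. DESeq2 1.42.0 was an alternative. Shares and numbers of elements at equal depth were compared with exact two-sided permutation tests (Python 3.11.15, scipy 1.17.1), as was the difference between tissues. Scripts were tested on simulated data. Precision is limited by 186545 to 1165192 L1 counts per library. Genomic positions came from the study's lists and annotation from GENCODE M21.

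Named elements were the 10 with the highest mean CPM, the 8 with the smallest p in each direction and the leading copy of each subfamily with a smallest p. Lx8_dup1602, L1_Mm_dup4871 and L1Md_F2_dup59906 were added from the study's lists. Other elements of those lists were named only where they met these rules. Named subfamilies were the 6 L1Md subfamilies, the 5 with the highest share and the 4 with the smallest p in each direction. The comparison, members and lists were chosen with earlier results of these data known. Columns of comparisons made by the authors were not used. Of the named elements, the sequence of 1 is shown, and the others are not reported here.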

Additional observations from a re-analysis of the deposited data

Results flagged for a closer look

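In 27 of 34 measures tested in WT-nt cortex, 1 library lay far from the other 8, and in all 27 it was WT-nt 1. The limit was a gap of more than 0.493 of the range of the group. About 1 in 20 groups of this size pass that limit by chance, and the gaps below are larger than it. The measures are not independent since they come from the same library. Some of the subfamilies were also picked by their p-values in WT-t against WT-nt, a comparison that WT-nt 1 itself shifted. Gaps at WT-nt 1 are therefore more likely for these subfamilies, and the count of 27 cannot be set against that chance rate. The L1 totals and class shares were not picked in this way. The gap took 0.910 of the range of L1 totals and 0.587 of the range of the share of the most abundant element. Among class shares it took 0.914 for L1Md_T/A/Gf, 0.766 for L1Md_F, 0.590 for L1_Mus and L1_Mm, 0.806 for L1_Mur, L1VL and L1_Rod, 0.743 for Lx and Lx2 and 0.602 for Lx7. It took 0.747 for Lx8, Lx9 and Lx10, 0.736 for HAL1, 0.809 for L1MA and L1MB, 0.840 for L1MC and L1MD, 0.823 for L1M1 to L1M8 and 0.723 for the subfamilies in no class. Among subfamily levels it took 0.965 for L1Md_T, 0.962 for Lx2A, 0.942 for L1Md_F2, 0.921 for L1Md_A, 0.914 for L1Md_F3 and 0.910 for Lx9. For Lx3A it was 0.865, for L1Md_F 0.848, for L1MB7 0.705, for L1Md_Gf 0.672, for L1MEd 0.607, for L1MC 0.554 and for L1ME4a 0.551. WT-nt 1 was the highest for the L1Md subfamilies, L1MEd, Lx2A, Lx3A and Lx9, and the lowest for L1MB7, L1MC and L1ME4a.

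L1MEd, L1MEg and L1Md_T differed between the 3 label starts among WT-t mice (edgeR's quasi-likelihood test, adjusted p = 0.0639 for each), and none was called without WT-t 1 (smallest adjusted p = 0.998).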

How the results depend on the processing

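For elements, 0 calls was the result under edgeR and DESeq2 with the main filter, with DESeq2's size factors, with only WT libraries in the model and without the libraries that stand apart, but DESeq2 without those libraries called 2. With looser filters edgeR called many elements with few reads, 42469 of 186107 with at least 10 counts in total (median 21 counts in 3 of 48 libraries, 11 of them within the main filter) and 56035 of 350407 with no filter (median 16 counts in 2 libraries, 7 within the main filter). DESeq2 called 0 of the same 186107. The study's second threshold, an unadjusted p below 0.05 and a log2 fold change of at least 1.5 in size, gave 18 of the 5416 elements tested, 10 higher and 8 lower. In edgeR the same threshold gave 10 higher and 2 lower of 5416 for treatment in TS cortex. In WT hippocampus it gave 18 higher and 3 lower of 4238. Leaving out 1 library at a time gave 0 to 2 elements (Lx_dup7185 and Lx3_Mus_dup1310 without WT-nt 2, and Lx3_Mus_dup1310 without WT-nt 7 or 9), 0 subfamilies and 0 classes. With the scaling of the element table, 25 subfamilies were called, all lower, and 8.27% of subfamilies were above 0 instead of 45.9%, with the median of all at -0.17, and 0 were called without WT-nt 1. DESeq2 called 15 subfamilies in the interaction. The label starts gave 6 elements with only WT libraries in the model, and 0 subfamilies there, without the libraries that stand apart and without WT-t 1. The difference in the share of the most abundant element, 1.76 percentage points, was 0.611 to 2.19 with 1 library left out, -0.33 without the libraries that stand apart, -0.69 with WT-t labels beginning with 20 and -1.27 mean ranks on ranks, and the difference in elements at equal depth was -7292 to -4072 with 1 library left out. Apart from the alternatives named here, the cause of these changes was not tested. No paired analysis was possible because WT-t and WT-nt are different mice and the labels carry no replicate numbers, and only cortex and hippocampus could be compared within mice. Low counts limit most copies: of the 430083 elements, 5416 could be tested.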

Other observations

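Lx3B_dup3459 had the same level, low or high, in cortex and hippocampus of every mouse with both tissues. Levels here are in CPM of all L1 counts without TMM scaling, and the limit of 1000 was set after the values were seen. Of 25 WT mice, 5 were below 1000 in both tissues (2 WT-nt and 3 WT-t), 20 were above in both and 0 were below in 1 tissue only. Low levels in WT mice were 42.1 to 138 in cortex and 54.2 to 166 in hippocampus, and high levels were 3549 to 23710 and 4085 to 17643. Of 21 TS mice, 6 were below in both tissues (3 untreated and 3 treated), 15 above in both and 0 below in 1 tissue only. L1Md_T_dup9904, with a wide range in cortex, was below 1000 in both tissues of 9 WT mice, above in both of 8 and below in 1 tissue only in 8. Its highest level in WT mice was 171813 in cortex and 3956 in hippocampus.

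Most L1 elements had counts in few libraries. Of the 284412 elements with a count in WT cortex, 76529 had none in the 9 WT-nt libraries. None of these had a count in more than 12 of 17 WT-t libraries. The reverse held for 62121 of the 284412 elements, with a count in at most 7 of 9 WT-nt libraries. With 17 libraries against 9, more elements can be seen only in WT-t without any difference between the groups. The 420 elements with a count in all 26 libraries held 27.3% of the L1 counts.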
